A study of Mus musculus with 18 samples.

Results

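The transcriptome of bone marrow cells labelled Cysltr1-/- was compared after culture with tumour-cell medium and after culture with IL-6. Marrow from BALB/c mice was cultured for 4 days in complete RPMI1640 medium with GM-CSF at 40 ng/mL. In the EMT6 medium group, 50% of the culture volume was medium conditioned for 24 h by EMT6, a mouse mammary carcinoma line. In the IL-6 group, the GM-CSF was joined by IL-6 at 40 ng/mL. Each library came from a pool of 3 mice, and each group held 3 libraries. The 6 libraries belong to a series of 18, in which the same cultures and GM-CSF alone were also set up with WT marrow. A gene was described where its mean reached 5 counts-per-million (CPM) in at least one of these groups, and 14240 of 55536 annotated genes did so.

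Cysltr1 encodes a G protein-coupled receptor for the cysteinyl leukotrienes, lipid mediators that leukocytes make from arachidonic acid. GM-CSF drives marrow progenitors towards granulocytes, macrophages and dendritic cells through a receptor that signals by Jak2 and Stat5. IL-6 signals through its receptor chain, the shared chain gp130 and Stat3, and both IL-6 and media of tumour lines are used to obtain suppressive myeloid cells from marrow in culture.

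The EMT6 medium libraries held 12950451, 9583728 and 10252241 counts in genes, against 23792674, 21867873 and 24372513 in the IL-6 libraries. Reads that fell in no annotated feature made up 50.1 to 50.4% with EMT6 medium, against 18.1 to 20.5% with IL-6. Reads that did not align made up 12.9 to 13.7% against 7.33 to 8.45%. Genes of the olfactory and vomeronasal receptor families, which are known mainly from sensory neurons, took 0.184 to 0.198% of gene counts against 0.0261 to 0.0332%. Mitochondrial genes took 0.810 to 1.01% against 1.354 to 1.497%. All these values separate the groups, and their cause was not tested. Fits with an estimated background subtracted are among the alternatives given at the end. The leukocyte marker Ptprc averaged 449 CPM with EMT6 medium, against 608 CPM with IL-6. The myeloid marker Lyz2 averaged 1393 against 1612 CPM, so both groups carried markers of the labelled cells. Other myeloid markers differed more and in both directions. Itgam, which encodes CD11b, averaged 139 against 661 CPM and Csf1r 164 against 722 CPM, while Ly6g averaged 88.4 against 22.3 CPM. Fewer cells of a type and less RNA per cell cannot be told apart in such bulk libraries.

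Whole-gene counts of Cysltr1 did not check the labelled allele. Cysltr1 had 113, 122 and 96 counts in the EMT6 medium libraries labelled Cysltr1-/-, against 83, 68 and 79 in WT. With IL-6 it had 1969, 1867 and 1994 counts in libraries labelled Cysltr1-/-, against 1872, 1575 and 1981 in WT. The transcript was therefore present in all groups, and counts over the whole gene do not show whether a part of it is missing. Fndc3c1, a gene near Cysltr1 on the X chromosome (chrX:106420041-106485401, minus strand; Cysltr1 at chr X 106574346 to 106603679, GRCm38), did separate the genotypes. It had 1007, 936 and 1044 counts with IL-6 in libraries labelled Cysltr1-/-, against 11, 4 and 13 in WT.

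Most genes differed between the media. Of the 14240 genes, 12666 (88.9%) passed an adjusted p under 0.05 in edgeR's quasi-likelihood test with Benjamini-Hochberg adjustment, and for 12675 (89.0%) the values of the groups did not overlap. With EMT6 medium 6261 genes (44.0%) were higher and 6405 (45.0%) were lower, and the median log2 fold change was -0.02. The split moved with the scaling, to 7710 higher and 4824 lower by plain library size, and to 32.7% higher among these genes' calls when scaling factors came from all genes without a filter. At least 2-fold differences numbered 3853 higher and 2323 lower, and at least 8-fold differences numbered 173 higher and 105 lower. With so high a share called, a count of called genes in a list says little, and the size and direction of the members carry the description. Each fold change below is EMT6 medium over IL-6 on the log2 scale, and stands in parentheses where it follows the levels. After ± stands its absolute value divided by the square root of its F value in that test. This is not a directly fitted standard error, and it can understate the error where a group held few counts. Each level is a CPM value scaled by edgeR's trimmed mean of M-values, and n is 3 libraries in each group. Replicates were close, with a common biological coefficient of variation of 0.0434 over the 18 libraries.

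The higher and lower genes lay at different levels. Among the 8204 genes with a mean of at least 20 CPM in the higher group, 2342 were higher and 4987 lower with EMT6 medium, with a median of -0.35. For the 10297 genes that reached 5 CPM in both groups, 27.9% were higher and 57.6% lower, with a median of -0.30. The shares over all genes given below therefore understate the falls among genes expressed in both groups. The 3466 genes that reached 5 CPM with EMT6 medium alone had to be higher there, and 3384 were, with a median CPM of 6.62 against 1.64. That choice sets their direction, and their log2 fold changes had a median of 2.23 and quartiles of 1.74 and 2.50. Likewise, 476 of the 477 genes that reached 5 CPM with IL-6 alone were lower with EMT6 medium. The 1464 receptor genes summed to 1569 to 1689 CPM with EMT6 medium, against 274 to 347 CPM with IL-6, a log2 ratio of 2.37. A background was estimated per exon base from the no-feature reads. It was larger than what remained of the EMT6 medium level for 1025 of the 3466 genes. The same held for 390 of the 10297 genes that reached 5 CPM in both groups. The source of these reads was not tested. Only 98 receptor genes passed the 5 CPM minimum. At the edge of that minimum, Mycl stood just inside with 3.82 against 5.00 CPM by plain library size, and Lefty1 just outside with 4.99 against 2.01 CPM.

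**Figure D1:**
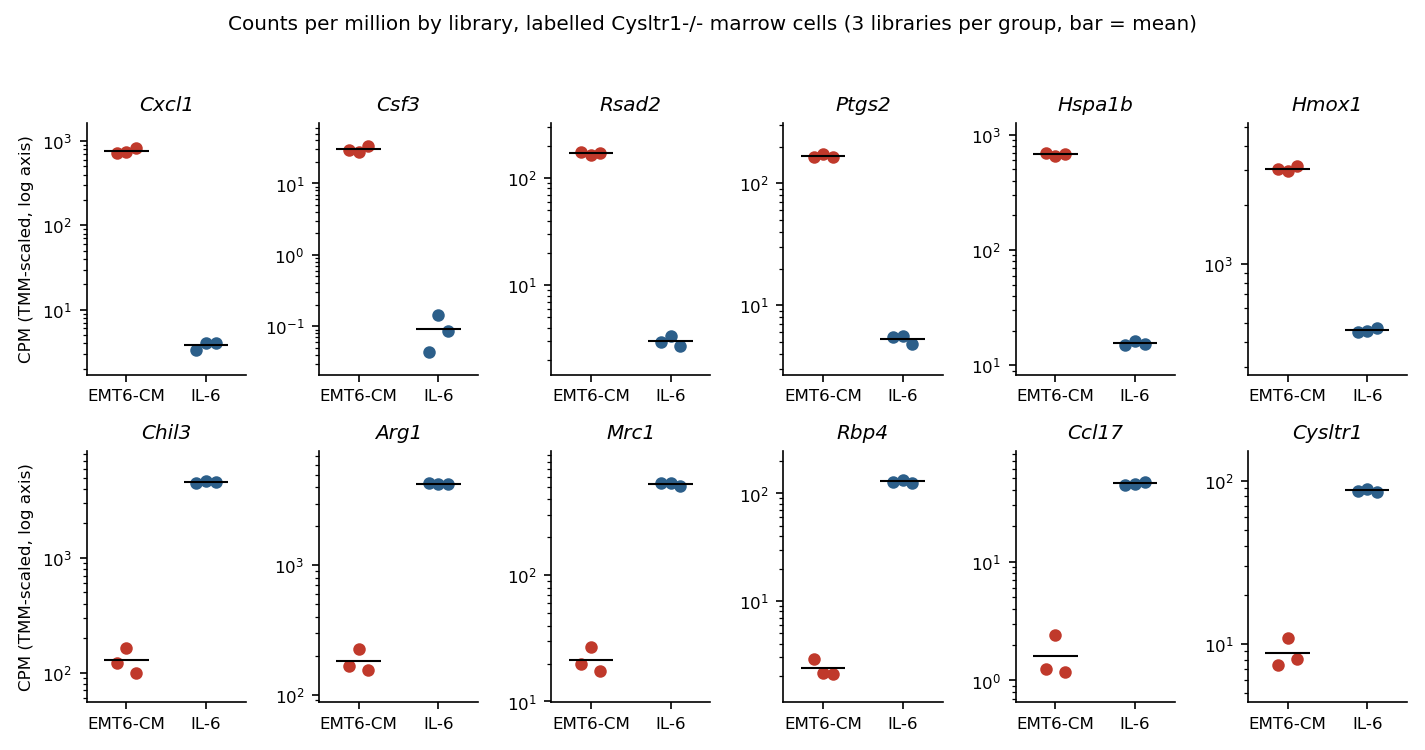
Levels in each of the 3 EMT6 medium and 3 IL-6 libraries labelled Cysltr1-/-, on a log axis of scaled CPM, for 6 genes that were higher and 6 that were lower with EMT6 medium; each point is a library. Cxcl1 stood at 723 to 819 CPM with EMT6 medium, against 3.35 to 4.06 CPM with IL-6, and Chil3 at 99.9 to 163 CPM against 4524 to 4674 CPM.

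The steepest rises included factors that act on neutrophils. Cxcl1, a ligand of Cxcr2 that draws neutrophils, had 723, 734 and 819 CPM with EMT6 medium, against 3.35, 4.06 and 3.98 CPM with IL-6. Its log2 fold change was 7.64 ± 0.09 (edgeR adjusted p = 7.0e-31). Cxcl2, a second ligand of that receptor, had 1833, 1915 and 2215 CPM with EMT6 medium, against 64.5, 65.4 and 66.9 CPM with IL-6. All 3 EMT6 medium libraries lay far above all 3 IL-6 libraries for both ligands, and Cxcl2 differed by 4.92 ± 0.06 (edgeR adjusted p = 2.6e-30). Csf3, which encodes G-CSF, the growth factor of neutrophil precursors, had 29.2, 27.5 and 33.1 CPM with EMT6 medium, against 0.0441, 0.143 and 0.0856 CPM with IL-6. The IL-6 libraries held 6 Csf3 counts in all, against 1146 with EMT6 medium. The fitted log2 fold change of 8.29 ± 0.18 (edgeR adjusted p = 4.2e-25) thus rests on few counts on its lower side, and 0.18 understates its error.

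The other members of the CXC list did not all follow. Cxcl3 had 582, 637 and 716 CPM with EMT6 medium, against 313, 336 and 339 CPM with IL-6, a log2 fold change of 0.97. Cxcl5 had 17.4, 19.95 and 21.4 CPM against 1.85, 1.96 and 1.33 CPM, a log2 fold change of 3.51. The platelet chemokine gene Pf4 had 385, 401 and 429 CPM with EMT6 medium and 389, 408 and 418 CPM with IL-6, and these ranges overlapped. Cxcr2, the receptor itself, fell to 19.7, 29.1 and 19.3 CPM with EMT6 medium, against 206, 203 and 203 CPM with IL-6 (-3.18 ± 0.08, edgeR adjusted p = 3.5e-24). In all, 5 of the 9 genes rose and 3 fell, beside 44.0% and 45.0% of all genes, and the list median of 0.24 changed sign with the low-count filter.

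The promoters of both leading ligands are shown because each holds the letters of an NF-kB motif close to the start of the gene. Each is 300 bases of RefSeq GRCm38.p6, 250 before and 50 after the start, 5′ to 3′ on the gene's strand. Capitals mark the motif, which matched on both strands at overlapping positions.
Cxcl1, chr5:90890995-90891294, plus strand: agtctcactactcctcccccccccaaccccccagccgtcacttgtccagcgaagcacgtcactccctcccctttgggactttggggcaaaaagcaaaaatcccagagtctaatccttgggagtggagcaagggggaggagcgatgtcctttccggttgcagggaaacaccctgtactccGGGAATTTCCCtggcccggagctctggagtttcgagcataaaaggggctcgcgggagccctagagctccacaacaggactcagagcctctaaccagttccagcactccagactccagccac
Cxcl2, chr5:90903649-90903948, plus strand: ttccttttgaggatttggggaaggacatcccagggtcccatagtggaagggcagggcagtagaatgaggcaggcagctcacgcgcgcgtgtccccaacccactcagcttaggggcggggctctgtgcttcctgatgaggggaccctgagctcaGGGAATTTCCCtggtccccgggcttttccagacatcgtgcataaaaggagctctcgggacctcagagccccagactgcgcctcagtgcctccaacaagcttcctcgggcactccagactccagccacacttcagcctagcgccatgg
The motif, searched on both strands, was found for 3 of the 8 list members with a promoter sequence. It was found for 9.55% of all 27025 genes with one, and for 12.4% of those tested. Among other lists it was found for 4 of 9 heat shock and 2 of 7 alternative activation genes. The motif therefore does not set the chemokine list apart. A match describes letters and not a bound site.

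CC chemokines split by class. Ccl3, a chemokine that draws monocytes and neutrophils, had 1567, 1763 and 1899 CPM with EMT6 medium, against 94.3, 94.5 and 95.4 CPM with IL-6 (4.20 ± 0.06, edgeR adjusted p = 5.5e-29). Ccrl2, a chemokine-like receptor that binds chemerin, had 264, 289 and 288 CPM against 18.3, 19.4 and 17.6 CPM (3.93). Ccl2, the main ligand of Ccr2 on monocytes, had 165, 201 and 223 CPM against 70.9, 69.6 and 69.7 CPM (1.48). These genes rose, while Ccr2 fell to 23.7, 29.8 and 24.8 CPM with EMT6 medium, against 121, 124 and 119 CPM with IL-6 (-2.23). The 10 inflammatory CC genes gave 6 higher and 4 lower, beside 44.0% and 45.0% of all genes, with a median of 0.79. All 6 kept members of the type 2 CC list fell, beside 45.0% of all genes. Their median was -2.31, which ranged from -2.88 to -1.99 over the alternative fits. Ccl17, a ligand of Ccr4 made by dendritic cells and macrophages, had 1.25, 2.41 and 1.18 CPM with EMT6 medium, against 43.7, 45.3 and 46.9 CPM with IL-6 (-4.85 ± 0.15, edgeR adjusted p = 6.5e-22). Ccl22, another Ccr4 ligand, had 15.2, 15 and 11.5 CPM against 207, 209 and 211 CPM (-3.90 ± 0.06, edgeR adjusted p = 7.8e-28). Ccl6 fell to 919.6, 1047 and 980.0 CPM, against 4880, 4780 and 4880 CPM with IL-6.

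Several inflammatory cytokines and genes that NF-kB induces to restrain itself rose steeply. Il1a, a cytokine that acts through the IL-1 receptor, had 109.9, 112 and 119 CPM with EMT6 medium, against 8.3, 6.58 and 7.1 CPM with IL-6 (3.95 ± 0.07, edgeR adjusted p = 1.7e-27). Il1b had 68, 70.3 and 70.0 CPM against 15.5, 16 and 13.6 CPM (2.21). The receptor antagonist Il1rn rose with them (1.58). Nlrp3 and Il1r2 went the other way. Nlrp3, the sensor of the inflammasome that leads to cleavage of pro-IL-1β, had 38.1, 38 and 34.2 CPM with EMT6 medium, against 206, 202 and 204 CPM with IL-6 (-2.47). Il1r2, the decoy receptor, differed by -2.11. The 14 kept IL-1 family genes gave 8 higher and 5 lower, shares of 57.1% and 35.7% beside 44.0% and 45.0% of all genes, and 2 of them passed the minimum only with EMT6 medium.

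Tnf, a central inflammatory cytokine, had 115, 131 and 135 CPM with EMT6 medium, against 20.4, 21.8 and 23.9 CPM with IL-6 (2.53 ± 0.07, edgeR adjusted p = 1.9e-22). Nfkbiz, a nuclear inhibitor-like protein that also directs a set of NF-kB targets, had 185, 169 and 188 CPM against 21.5, 23.1 and 20.8 CPM (3.05 ± 0.06, edgeR adjusted p = 2.0e-26). Tnfaip3, which encodes the ubiquitin-editing enzyme A20, had 354, 349 and 359 CPM against 79.2, 82.9 and 85.9 CPM (edgeR adjusted p = 5.6e-26). None of these genes had overlapping groups. Of 20 genes on the NF-kB feedback list, 14 were higher (70%, beside 44.0% of all genes) and 6 lower, with a median of 0.71 that ranged from 0.14 to 1.01 over the alternative fits. The NF-kB motif was found for 10 of the 16 members with a promoter sequence, against 9.55% of all genes with one and 12.4% of those tested.

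Il12a, the p35 subunit of IL-12 and IL-35, had 129.8, 166 and 179 CPM with EMT6 medium, against 4.72, 4.06 and 5.14 CPM with IL-6. It differed by 5.08 ± 0.10 (edgeR adjusted p = 1.2e-25). Tgfb1 fell to 221, 231 and 238 CPM with EMT6 medium, against 833, 830.1 and 833 CPM with IL-6 (-1.85). Gadd45b, a stress-induced gene, had 969.8, 1037 and 1090 CPM against 53.8, 51.6 and 53.4 CPM (4.28 ± 0.05, edgeR adjusted p = 2.0e-30), and the immediate early gene Nr4a1 differed by 3.33. Among sensors of microbial products, Tlr4, the receptor for lipopolysaccharide, fell to 35.5, 39 and 33.6 CPM with EMT6 medium, against 190.2, 187 and 181 CPM with IL-6 (-2.37). The negative regulator of Toll-like receptor signalling Irak3 rose by a log2 fold change of 2.60.

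Interferon-stimulated genes rose almost as a block. Of 30 genes on this list, 29 were higher with EMT6 medium, beside 44.0% of all genes, and 1 was lower. The median was 2.56, against -0.02 for all genes, and it ranged from 1.41 to 2.91 over the alternative fits. The lowest of these medians came from requiring 5 CPM in both groups, because 11 members passed with EMT6 medium alone. Rsad2, which encodes the antiviral enzyme viperin, had 175, 165 and 172 CPM with EMT6 medium, against 2.96, 3.34 and 2.7 CPM with IL-6 (5.84 ± 0.08, edgeR adjusted p = 9.1e-30). Ifit2, an RNA-binding antiviral protein, had 69.5, 61.2 and 69.3 CPM against 2.25, 4.63 and 3.21 CPM (4.32 ± 0.11, edgeR adjusted p = 1.1e-23). Irf7, the transcription factor that amplifies type I interferon production, had 272, 291 and 318 CPM against 56.1, 56.6 and 56 CPM (2.38 ± 0.05, edgeR adjusted p = 2.3e-25). The groups stood apart in every one of these genes. Bst2, the membrane protein tetherin that holds budding viruses, differed by 2.42, Rtp4 by 4.30 and Isg15, a ubiquitin-like modifier, by 3.96. Ifih1, the cytosolic RNA sensor MDA5, was the exception, with 21.4, 25.9 and 23 CPM with EMT6 medium, against 34, 32.4 and 33.4 CPM with IL-6 (-0.51). The GTPases better known as targets of interferon gamma moved less evenly, with 7 of 12 higher and 3 lower, beside 44.0% and 45.0% of all genes. Their median of 0.36 changed sign without a low-count filter.

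The promoters of Rsad2 and Ifit3 are shown because these list members rose steeply and their promoters hold the interferon-stimulated response element. Ifit3 had 9.33, 7.66 and 10.7 CPM with EMT6 medium, against 0.0441, 0.143 and 0.0856 CPM with IL-6. The element was searched on both strands as GAAA, any 2 bases and GAAA, and the capitals mark it where it reads on the opposite strand.
Rsad2, chr12:26456403-26456702, minus strand: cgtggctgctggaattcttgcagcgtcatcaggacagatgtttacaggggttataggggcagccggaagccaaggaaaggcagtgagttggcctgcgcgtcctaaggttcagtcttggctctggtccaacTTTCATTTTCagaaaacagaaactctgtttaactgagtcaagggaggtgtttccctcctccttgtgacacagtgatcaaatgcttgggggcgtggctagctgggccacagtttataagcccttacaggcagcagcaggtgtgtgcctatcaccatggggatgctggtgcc
Ifit3, chr19:34583279-34583578, plus strand: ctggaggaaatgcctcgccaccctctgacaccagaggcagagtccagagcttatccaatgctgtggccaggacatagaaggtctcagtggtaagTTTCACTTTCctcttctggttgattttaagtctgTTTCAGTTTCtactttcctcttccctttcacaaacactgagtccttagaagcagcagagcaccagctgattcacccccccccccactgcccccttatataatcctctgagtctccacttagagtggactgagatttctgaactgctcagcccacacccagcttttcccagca
It was found for 12 of the 20 members with a promoter sequence and for 3.99% of all genes with one. The promoters of Ifit2 in the table held no match in this window.

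**Figure D2:**
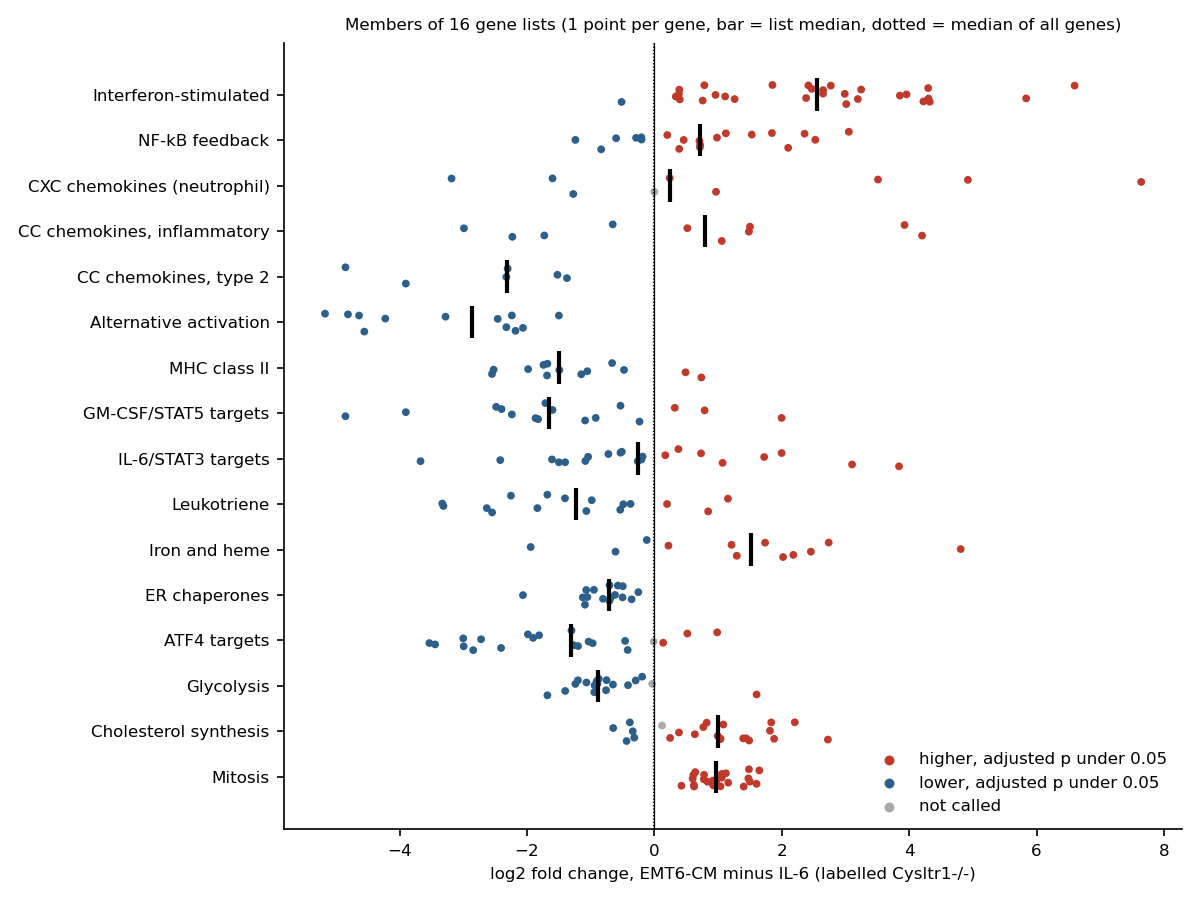
Log2 fold change, EMT6 medium over IL-6 in libraries labelled Cysltr1-/-, of the members of 16 gene lists; each point is a gene, coloured by edgeR's call, black bars are list medians and the dotted line is the median of all genes at -0.02. The interferon-stimulated genes lie mostly to the right with a median of 2.56, and the alternative activation genes all lie to the left with a median of -2.87.

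Stress pathways moved in different directions. The inducible cytosolic chaperones of the Hsp70 family rose most among heat shock genes. Hspa1a had 304, 314 and 317 CPM with EMT6 medium, against 7.37, 5.82 and 7.4 CPM with IL-6 (5.50 ± 0.07, edgeR adjusted p = 8.1e-30). Hspa1b, its near-identical neighbour, had 689, 655 and 686 CPM against 15.1, 16.3 and 15.3 CPM (5.44 ± 0.06, edgeR adjusted p = 4.8e-32). Reads of this pair may be left out or split between them by the counting, so the separate values are uncertain. Their co-chaperone Dnaja1 rose too, with a log2 fold change of 1.49. Mitochondrial Hspd1 fell to 47.9, 42.9 and 44.7 CPM with EMT6 medium, against 127, 133 and 127 CPM with IL-6 (-1.51). The 13 genes of the list gave 8 higher and 5 lower, beside 44.0% and 45.0% of all genes. The heat shock element was searched on both strands as GAA, any 2 bases, TTC, any 2 bases and GAA. It was found for 3 of the 9 list members with a promoter sequence and for 0.662% of all genes with one.

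All 16 chaperones and folding enzymes of the endoplasmic reticulum fell, beside 45.0% of all genes, with a median of -0.71 that ranged from -1.27 to -0.38. Hspa5, the reticulum's Hsp70, had 842, 834 and 847 CPM with EMT6 medium, against 1440, 1494 and 1479 CPM with IL-6 (-0.81 ± 0.04, edgeR adjusted p = 1.0e-16). Xbp1, the transcription factor spliced by Ire1, had 213, 239 and 226 CPM against 964, 926 and 941 CPM (-2.06 ± 0.04, edgeR adjusted p = 6.6e-26). Dnajb9, at -0.25, was the only member whose sign was not the same in every alternative fit.

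Of 21 kept genes of the ATF4 response, which amino acid shortage is known to set off, 17 fell and 3 rose. Beside them, 45.0% of all genes fell and 44.0% rose, and the list median was -1.30. Slc7a5, a transporter of large neutral amino acids, had 43.4, 56.7 and 35.3 CPM with EMT6 medium, against 531, 512 and 516 CPM with IL-6 (-3.53 ± 0.08, edgeR adjusted p = 1.4e-24). Trib3, a pseudokinase, had 41.6, 41.5 and 34.1 CPM against 277, 286 and 281 CPM (-2.84), and Atf5 differed by -2.99. Atf4 transcript itself stood at 591, 586 and 595 CPM with EMT6 medium and at 594, 596 and 595 CPM with IL-6, and these ranges overlapped. Ddit3, which encodes CHOP, was among the members that rose (0.99).

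Genes of heme and iron handling rose. Hmox1, which degrades heme and releases its iron, had 3055, 2991 and 3142 CPM with EMT6 medium, against 452, 457 and 470.2 CPM with IL-6 (2.74 ± 0.04, edgeR adjusted p = 1.9e-29). Fth1, the ferritin heavy chain that stores iron, had 41569, 42858 and 45828 CPM against 10396, 10842 and 10876 CPM (2.02 ± 0.05, edgeR adjusted p = 5.3e-24). For both genes every EMT6 medium library exceeded every IL-6 library. Slc40a1, the iron exporter ferroportin, had 107, 101 and 107 CPM against 18.5, 20.4 and 18.6 CPM (2.46), and Tfrc, the transferrin receptor that brings iron in, differed by 1.29. Of 12 kept genes, 9 rose and 3 fell, beside 44.0% and 45.0% of all genes. Their median of 1.52 ranged from 0.95 to 2.05.

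The receptors of the added cytokines were lower with EMT6 medium. Il6ra, the IL-6 binding chain, had 40.2, 42.5 and 39.6 CPM with EMT6 medium, against 91.1, 84.8 and 82.9 CPM with IL-6 (-1.08). Il6st, which encodes gp130, had 62.5, 70.2 and 60.5 CPM against 357, 336 and 339 CPM (-2.42 ± 0.06, edgeR adjusted p = 9.7e-25). The genes IL-6 is known to induce through Stat3 did not move one way. Socs3, the feedback inhibitor of gp130 signalling, had 357, 357 and 363 CPM against 431, 429 and 431 CPM, and its log2 fold change of -0.26 ± 0.04 changed sign with the scaling. Stat3 differed by -0.51. The acute phase genes Saa3 and Lcn2 rose. Saa3 had 209, 208 and 241 CPM with EMT6 medium, against 15.3, 15.3 and 15.3 CPM with IL-6 (3.84 ± 0.08, edgeR adjusted p = 3.9e-26), and Lcn2, the siderophore-binding lipocalin, had 2878, 3212 and 3600 CPM against 377, 377 and 374 CPM (3.10 ± 0.06, edgeR adjusted p = 4.8e-26). Of the 21 genes on the IL-6 list, 8 were higher and 13 lower, beside 44.0% and 45.0% of all genes. Il6 transcript was 10.1, 11.3 and 11.6 CPM with EMT6 medium, against 25.8, 29.4 and 28.8 CPM with IL-6 (-1.35).

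The chains of the GM-CSF receptor also fell, although both cultures held GM-CSF. Csf2ra had 92.6, 86.8 and 88.2 CPM with EMT6 medium, against 388, 383 and 389.8 CPM with IL-6 (-2.12). Csf2rb, the signalling chain, had 791, 857 and 798 CPM against 3730, 3626 and 3612 CPM (-2.17 ± 0.04, edgeR adjusted p = 6.9e-26). Of 16 genes known to respond to GM-CSF or Stat5, 13 fell and 3 rose, beside 45.0% and 44.0% of all genes. Their median was -1.66. Cish, the Stat5 feedback gene, had 119, 123 and 126 CPM with EMT6 medium, against 369, 374 and 372 CPM with IL-6 (-1.60). Socs2 differed by -2.24, Irf4, a factor of dendritic cell development, by -2.40 and Myc by -1.87. Bcl6, a repressor that Stat5 is known to hold down, was among the 3 that rose (2.00). Csf1, the macrophage growth factor, fell to 72.1, 74.2 and 70.1 CPM with EMT6 medium, against 830.0, 819 and 811 CPM with IL-6 (-3.51 ± 0.05, edgeR adjusted p = 7.6e-30), and its receptor Csf1r differed by -2.14.

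Genes of alternative macrophage activation had the lowest median of any list with more than 3 kept genes. All 12 kept members of 14 listed were lower, beside 45.0% of all genes, with a median of -2.87 that ranged from -3.44 to -2.54. Chil3, a chitinase-like secreted protein, had 122, 163 and 99.9 CPM with EMT6 medium, against 4524, 4674 and 4610 CPM with IL-6 (-5.17 ± 0.10, edgeR adjusted p = 3.4e-26). Arg1, which hydrolyses arginine and is used as a marker of suppressive myeloid cells, had 167, 226 and 154 CPM against 4305, 4259 and 4252 CPM (-4.55 ± 0.09, edgeR adjusted p = 1.8e-26). Mrc1, the mannose receptor, had 19.98, 26.9 and 17.5 CPM against 537, 542 and 511 CPM (-4.64 ± 0.08, edgeR adjusted p = 1.8e-27). All 3 genes separated the groups without overlap in every library. Mgl2, a galactose-type lectin, differed by -4.81, Retnla by -4.22 and the transglutaminase Tgm2 by -3.28.

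Among other arginine genes, a transporter fell together with Arg1. Slc7a2, a cationic amino acid transporter, had 97.4, 113 and 83.7 CPM with EMT6 medium, against 1577, 1550 and 1564 CPM with IL-6 (-4.00 ± 0.07, edgeR adjusted p = 1.1e-27). Srm, the spermidine synthase, had 9.47, 11.9 and 8.5 CPM against 76.8, 77.5 and 75.5 CPM (-2.95). Nos2, which makes nitric oxide from arginine, had 332, 316 and 326 CPM with EMT6 medium, against 259.5, 253 and 255 CPM with IL-6. Its small log2 fold change of 0.34 ± 0.05 changed sign when no low-count filter was used. Of the 12 genes on this list 4 were higher and 6 lower, beside 44.0% and 45.0% of all genes. Among surface ligands of T cell checkpoints, Cd274, which encodes PD-L1, had 1088, 1118 and 1152 CPM against 380.3, 376 and 387 CPM (1.55 ± 0.04, edgeR adjusted p = 1.5e-23). Pdcd1lg2, which encodes PD-L2, went the other way with 15.3, 15.2 and 14.3 CPM against 62.5, 61.1 and 64 CPM (-2.06).

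Matrix proteases and adhesion molecules fell with the macrophage genes. Mmp12, the macrophage elastase, had 495, 617 and 488 CPM with EMT6 medium, against 9355, 9301 and 9083 CPM with IL-6 (-4.12 ± 0.06, edgeR adjusted p = 3.7e-28). Fn1, fibronectin, had 185, 288 and 140.4 CPM against 4243, 3998 and 4046 CPM (-4.33). Of 11 proteases and inhibitors of this family kept, 9 fell and 1 rose, beside 45.0% and 44.0% of all genes. Of 16 integrins and adhesion genes, 15 fell, beside the same 45.0%, with a median of -1.49. Itgax, which encodes CD11c, had 37.5, 42.8 and 26.1 CPM with EMT6 medium, against 653, 624 and 612 CPM with IL-6 (-4.15), and Cdh1, E-cadherin, differed by -4.48. The second library of the EMT6 medium group was the highest of its 3 for Arg1, Chil3, Mrc1, Fn1 and Itgax, and it still lay far below each IL-6 library.

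Further steep changes were spread over genes of many kinds. Vnn3, a pantetheinase of the vanin family, had 124, 116 and 115 CPM with EMT6 medium, against 1.02, 0.907 and 0.899 CPM with IL-6 (6.97 ± 0.10, edgeR adjusted p = 2.2e-29). Ly6i and Ly6a, which encode small anchored surface proteins, differed by 5.56 and 4.47. Slc32a1, the vesicular transporter of inhibitory amino acids, differed by 4.31 and the small GTP-binding protein gene Rasd2 by 4.79. In the other direction, Rbp4, the carrier of retinol, had 2.89, 2.14 and 2.105 CPM with EMT6 medium, against 129, 134 and 126 CPM with IL-6 (-5.74 ± 0.10, edgeR adjusted p = 3.4e-27). Ch25h, which makes 25-hydroxycholesterol, had 3.68, 4.28 and 4.21 CPM against 146, 147 and 148 CPM (-5.19 ± 0.07, edgeR adjusted p = 7.6e-30). Naaa, a lysosomal amidase, differed by -4.38 and Asgr2, a lectin subunit, by -4.33.

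The eicosanoid pathways, to which the receptor Cysltr1 belongs, held steep changes in both directions. In the prostanoid branch, Ptgs2, the inducible cyclooxygenase, had 163, 173 and 164 CPM with EMT6 medium, against 5.52, 5.58 and 4.84 CPM with IL-6 (4.97 ± 0.07, edgeR adjusted p = 1.7e-29). Ptges, which makes prostaglandin E2 from its product, had 63.4, 68.1 and 73 CPM against 5.12, 4.82 and 5.95 CPM (3.68 ± 0.08, edgeR adjusted p = 4.1e-25). Ptgs1, the constitutive cyclooxygenase, fell to 75.9, 76.3 and 78.2 CPM with EMT6 medium, against 316, 312 and 307 CPM with IL-6 (-2.02), and the thromboxane synthase gene Tbxas1 differed by -2.70. Of 14 kept prostanoid genes 8 were higher and 6 lower (57.1% and 42.9%), near the shares over all genes, and 4 passed the minimum only with EMT6 medium. Their median of 0.32 changed sign with the low-count filter, to -0.25 without one, -0.069 at 20 CPM and -0.094 with 5 CPM in both groups.

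The leukotriene branch fell, with 13 of 16 kept genes lower and 3 higher, beside 45.0% and 44.0% of all genes. Its median of -1.24 ranged from -1.80 to -0.77. Alox5, the 5-lipoxygenase that starts the branch, had 75.2, 82.5 and 72.6 CPM with EMT6 medium, against 374, 365 and 357 CPM with IL-6 (-2.25 ± 0.05, edgeR adjusted p = 1.6e-25). Its helper Alox5ap differed by -0.98. Ltc4s, which makes the first cysteinyl leukotriene, had 3.09, 4.54 and 3.2 CPM against 19.5, 20.5 and 22.4 CPM (-2.55). Among the receptors, Cysltr1 had 7.43, 10.9 and 8.08 CPM with EMT6 medium, against 86.9, 89.1 and 85.3 CPM with IL-6 (-3.33 ± 0.08, edgeR adjusted p = 1.3e-24). Cysltr2 had 5.13, 4.54 and 5.14 CPM against 10.3, 11.2 and 9.72 CPM (-1.07). Ltb4r1, the high-affinity receptor of leukotriene B4, had 42.1, 43.8 and 42.3 CPM against 261, 264 and 268 CPM (-2.63 ± 0.04, edgeR adjusted p = 1.8e-27). The low-affinity receptor gene Ltb4r2 was among the members that rose (1.15).

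Antigen presentation genes differed by class. Of 13 class II genes, 11 fell, beside 45.0% of all genes, with a median of -1.49. Cd74, the invariant chain, had 636, 659 and 672 CPM with EMT6 medium, against 2544, 2603 and 2625 CPM with IL-6 (-1.98 ± 0.04, edgeR adjusted p = 6.3e-25), and H2-Ab1 had 168, 182 and 169 CPM against 481, 489 and 493 CPM (-1.49). For class I, 11 of 16 genes rose and 4 fell, beside 44.0% and 45.0% of all genes. The class I median of 0.29 changed sign with the low-count filter. B2m, the common light chain, had 2086, 2492 and 2596 CPM with EMT6 medium, against 894, 899 and 905 CPM with IL-6 (1.41). H2-K1 differed by 1.00, and class I genes of one family share sequence, so reads may be left out or split among them.

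Sterol synthesis and mitosis genes rose, and in both cases more than in WT marrow. The WT comparison holds its own 3 EMT6 medium and 3 IL-6 libraries and shares none with this one. The difference between the genotypes, the log2 fold change in libraries labelled Cysltr1-/- minus that in WT, was tested as one contrast of the same fit. It passed an adjusted p under 0.05 for 6279 of 14240 genes (44.1%), with 2301 (16.2%) higher and 3978 (27.9%) lower. That split depends on the scaling, with 50.6% of calls higher by DESeq2 size factors and 65.1% by plain library size, against 36.6% here. It also depends on single libraries. Without WT EMT6 medium replicate 1 the difference was higher for 2940 genes and lower for 2648 (52.6% of calls higher). Without WT EMT6 medium replicate 3 it was 52.4%, and without replicate 2 of the EMT6 medium libraries labelled Cysltr1-/- it was 51.4%. The shares of 16.2% and 27.9% below are those with all libraries and the scaling used here.

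Of 23 genes of cholesterol synthesis and uptake, 17 rose and 5 fell, beside 44.0% and 45.0% of all genes. Their median of 0.99 ranged from 0.43 to 1.36, against a median of 0.22 in WT. The genotype difference was called higher for 18 of them, beside 16.2% of all genes, and lower for 0, and its median of 0.60 ranged from 0.50 to 0.78. Hmgcs1, an early enzyme of the pathway, had 166, 167 and 166 CPM with EMT6 medium, against 45.4, 47.6 and 46.9 CPM with IL-6 in libraries labelled Cysltr1-/-. In WT it had 96.4, 103 and 104 CPM with EMT6 medium, against 59.8, 61 and 60.7 CPM with IL-6. The log2 fold changes were 1.83 ± 0.04 and 0.74 ± 0.04, and their difference was 1.09 ± 0.06 (edgeR adjusted p = 6.5e-14). Insig1, a sterol-regulated brake on the pathway, differed by 2.72 between media in libraries labelled Cysltr1-/- and by 2.16 in WT.

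All 23 mitosis genes rose, beside 44.0% of all genes, with a median of 0.97 that ranged from 0.40 to 1.30, against a median of 0.24 in WT. The genotype difference was called higher for all 23, beside 16.2% of all genes, and its median of 0.87 ranged from 0.77 to 1.05. Cdc20, an activator of the anaphase-promoting complex, had 56, 61.1 and 56.4 CPM with EMT6 medium, against 18.8, 19.2 and 19 CPM with IL-6 in libraries labelled Cysltr1-/-. In WT it had 59.9, 59.3 and 68.1 CPM with EMT6 medium, against 34.6, 37.3 and 35.8 CPM with IL-6. The difference lay mainly in the IL-6 libraries, which stood lower in the labelled genotype than in WT, while the EMT6 medium libraries were closer. Mki67, a marker of cycling cells, had 148, 147 and 138 CPM against 98.8, 90.9 and 87.7 CPM in libraries labelled Cysltr1-/-, and 220.3, 203 and 218 CPM against 229.9, 229.9 and 224 CPM in WT. Its log2 fold changes were 0.64 ± 0.05 and -0.09 ± 0.05, with a difference of 0.73 ± 0.07 (edgeR adjusted p = 6.3e-09). Of 24 kept DNA replication genes, 18 rose and 3 fell, beside 44.0% and 45.0% of all genes. Their median of 0.54 ranged from -0.03 to 0.86.

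**Figure D3:**
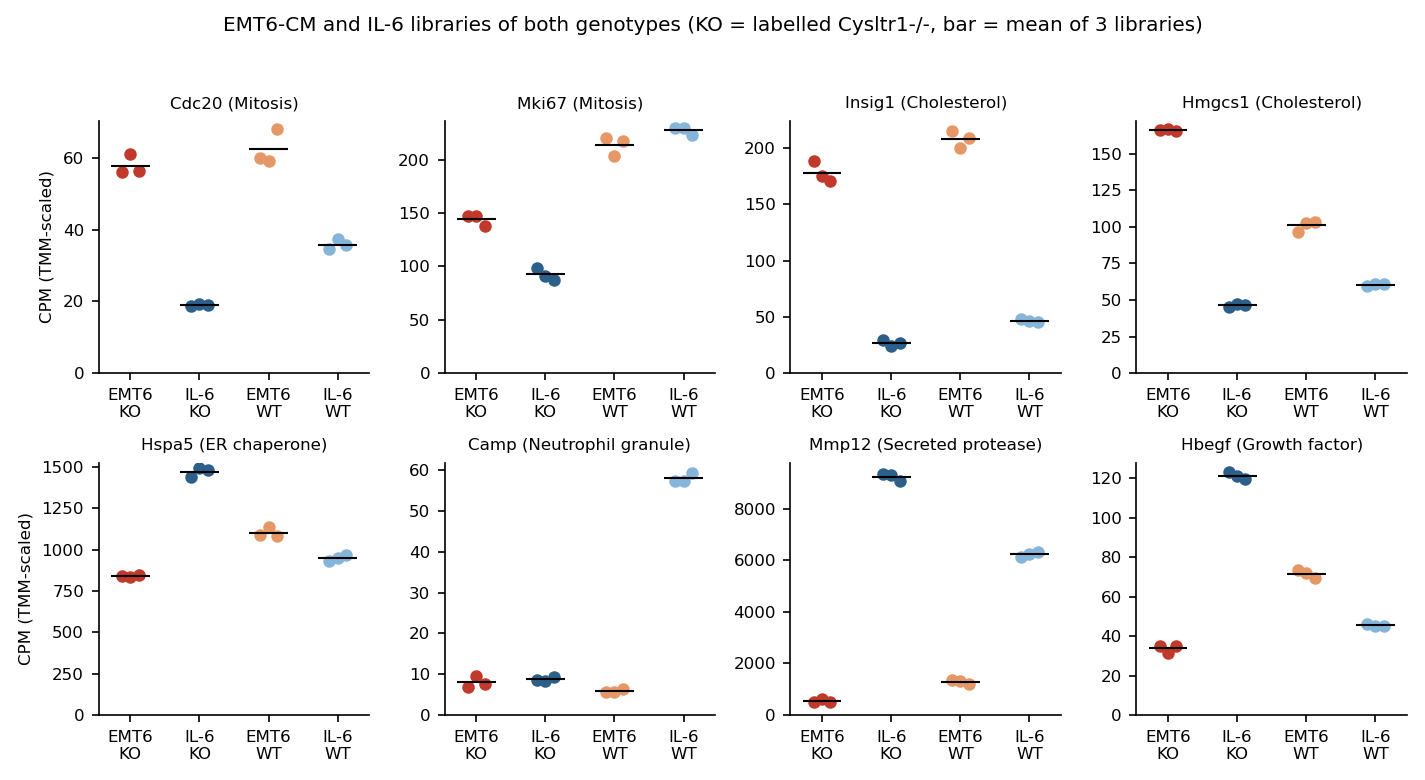
Scaled CPM of 8 genes in each library of the EMT6 medium and IL-6 groups labelled Cysltr1-/- (KO) and WT, with linear axes from 0 and a bar for the mean of 3 libraries. Hmgcs1 differs more between media in the labelled genotype than in WT, and Camp is high in the WT IL-6 libraries at 57.4 to 59.2 CPM.

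The reticulum chaperones differed between genotypes as well, with the difference called lower for 15 of 16, beside 27.9% of all genes, and a median of -0.64 that ranged from -0.74 to -0.47. Hspa5 had a log2 fold change of -0.81 in libraries labelled Cysltr1-/-, against 0.22 in WT, a difference of -1.02 ± 0.06 (edgeR adjusted p = 6.5e-14). The interferon-stimulated genes had a median of 2.56 in the labelled genotype and 3.10 in WT, with 22 of 30 differences called lower, beside 27.9% of all genes, and 0 higher. Rsad2 had 306, 307 and 316 CPM with EMT6 medium, against 1.82, 2.29 and 1.53 CPM with IL-6 in WT, and its genotype difference was -1.54 ± 0.16 (edgeR adjusted p = 9.5e-09). Hspa1b ran the other way, with a larger rise in the labelled genotype (1.37 ± 0.08, edgeR adjusted p = 2.7e-13).

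Glycolysis genes fell, with 16 of 18 lower and 1 higher, beside 45.0% and 44.0% of all genes. Their median was -0.88, which ranged from -1.45 to -0.56, and it was -0.80 in WT. Eno1, an enolase, had 441, 431 and 420.0 CPM with EMT6 medium, against 1394, 1384 and 1361 CPM with IL-6 (-1.68 ± 0.04, edgeR adjusted p = 7.9e-25). Pfkfb3, which makes the activator of phosphofructokinase, was the member that rose, with 571, 527 and 517 CPM against 181, 175 and 176 CPM (1.60).

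Markers of myeloid cell types went both ways for neutrophils and monocytes and mostly fell for macrophages and dendritic cells. Of 23 genes of mature neutrophils 12 were higher and 9 lower, beside 44.0% and 45.0% of all genes. Their median of 1.18 ranged from 0.61 to 1.51, against 0.24 in WT. Ly6g had 86.4, 88 and 90.8 CPM with EMT6 medium, against 21.4, 23.5 and 22.1 CPM with IL-6 (1.99). Mxd1, a Myc antagonist abundant in neutrophils, had 1077, 1004 and 994 CPM against 202, 196 and 199.9 CPM (2.36 ± 0.04, edgeR adjusted p = 1.2e-26). Receptors of the list went both ways. Fpr2, a formyl peptide receptor, rose (1.18), while Cxcr2 fell, as did Trem1, which had 15.9, 22.9 and 16.4 CPM against 142, 144 and 143 CPM (-2.97). Of 11 primary granule genes, made by earlier neutrophil stages, 7 were lower and 3 higher (63.6% and 27.3%, beside 45.0% and 44.0% of all genes). Mpo, the myeloperoxidase of those granules, had 25.8, 29 and 23.9 CPM with EMT6 medium, against 144, 142 and 138 CPM with IL-6 (-2.43). Of 16 genes of later granules, 9 were lower and 5 higher (56.2% and 31.2%). Among genes that reached 5 CPM in both groups 57.6% were lower and 27.9% higher, and the shares of both granule lists were near those.

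Of 21 kept macrophage genes 15 fell (71.4%, beside 45.0% of all genes) and 4 rose, with a median of -1.25. Fabp4 and Fabp5, fatty acid binding proteins, were among those that rose, with log2 fold changes of 3.75 and 1.84. Of 13 kept monocyte genes 7 fell and 5 rose (53.8% and 38.5%), near the shares over all genes. Among them Vcan, versican, had 20.8, 23.7 and 17.4 CPM against 252, 234 and 228 CPM (-3.53). Of 16 kept dendritic cell genes 10 fell (62.5%, beside 45.0% of all genes) and 4 rose, with a median of -1.01. Their share that fell was near the 57.6% among genes that reached 5 CPM in both groups, whose median was -0.30.

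Eosinophil genes split, with 3 of 7 kept higher and 4 lower, beside 44.0% and 45.0% of all genes. Prg2, the major basic protein of their granules, had 377, 369.8 and 419 CPM with EMT6 medium, against 52.9, 52.5 and 50.6 CPM with IL-6 (2.90 ± 0.07, edgeR adjusted p = 6.4e-24). Epx, the eosinophil peroxidase, also rose (2.54). Rnase2a, a ribonuclease gene of the same list, fell to 4.86, 8.64 and 3.03 CPM with EMT6 medium, against 124, 118 and 126 CPM with IL-6 (-4.50), and Siglecf differed by -1.22. Of 8 kept mast cell and basophil genes 6 fell and 1 rose, beside 45.0% and 44.0% of all genes.

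Receptors of the C-type lectin family went both ways, with 8 of 14 kept genes lower and 6 higher, beside 45.0% and 44.0% of all genes. Clec5a, a receptor that signals through Dap12, had 18.3, 21.2 and 16.5 CPM with EMT6 medium, against 254, 257 and 243 CPM with IL-6 (-3.75 ± 0.06, edgeR adjusted p = 3.3e-28). Clec7a, the receptor dectin-1 for fungal glucans, had 53.8, 61.2 and 53.5 CPM against 361, 366 and 358 CPM (-2.69). Clec4d and Clec4e, which sense mycobacterial glycolipids, rose instead. Clec4e had 322, 313 and 337 CPM with EMT6 medium, against 96.9, 95.7 and 96.9 CPM with IL-6 (1.75), and Clec4d differed by 2.06.

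Of 13 receptors for nucleotides and adenosine, 9 fell and 4 rose, beside 45.0% and 44.0% of all genes. P2ry14, a receptor for nucleotide sugars, had 21.1, 22.2 and 23.6 CPM with EMT6 medium, against 139, 134 and 138 CPM with IL-6 (-2.62 ± 0.06, edgeR adjusted p = 2.1e-25). Adora2a, the adenosine receptor known to restrain inflammatory cells, had 46.4, 46.3 and 43.9 CPM against 7.9, 9.35 and 9.59 CPM (2.35) and was the member that rose most. Of 11 kept complement genes 8 fell and 3 rose, beside the same shares of all genes. Cfp, properdin, had 226, 235 and 236 CPM with EMT6 medium, against 979, 988 and 1000 CPM with IL-6 (-2.09).

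Transcription factors of the myeloid lineages gave 7 higher, 10 lower and 3 not called of 20, beside 44.0% higher and 45.0% lower of all genes. Spi1, which encodes PU.1, had 400.0, 405 and 446 CPM with EMT6 medium and 431, 433 and 437 CPM with IL-6, with overlapping ranges. The factors of the C/EBP family parted. Cebpb, known from emergency granulopoiesis, had 1719, 1655 and 1784 CPM with EMT6 medium, against 807, 806 and 843 CPM with IL-6 (1.07), while Cebpa had 45.6, 47.9 and 50.9 CPM against 129, 125 and 126 CPM (-1.40). Klf4, a monocyte factor, differed by -2.18, and Bhlhe41 had 291, 281 and 292 CPM against 68.3, 69.4 and 66.1 CPM (2.08 ± 0.04, edgeR adjusted p = 3.3e-26). Hoxa9, a factor of immature progenitors, differed by 1.75.

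Among regulators of cell death and arrest, Fas, a death receptor, had 93.5, 105 and 112 CPM with EMT6 medium, against 18.8, 21.2 and 18.8 CPM with IL-6 (2.40 ± 0.08, edgeR adjusted p = 2.1e-21). Cflar, which inhibits signalling from that receptor, had 252, 219.7 and 214 CPM against 97.2, 99 and 98.8 CPM (1.22). Mdm2, the ligase that degrades p53, had 575, 507 and 544 CPM with EMT6 medium, against 172, 177 and 177 CPM with IL-6 (1.63). The inhibitors of cyclin-dependent kinases encoded at the Cdkn2a and Cdkn2b genes fell, to 3.29, 2.41 and 2.19 CPM for Cdkn2b with EMT6 medium, against 32.8, 34.2 and 35.4 CPM with IL-6 (-3.66). Of 17 kept genes of arrest and the p53 response, 12 rose and 5 fell, beside 44.0% and 45.0% of all genes. Of 19 genes of apoptosis and survival, 8 rose and 10 fell, beside the same shares.

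Lysosomal genes went both ways, with 7 of 20 higher and 13 lower, beside 44.0% and 45.0% of all genes. Their median changed sign with the scaling. Psap, prosaposin, had 8361, 7873 and 7699 CPM with EMT6 medium, against 14314, 14441 and 14657 CPM with IL-6 (-0.86). Ctsl, cathepsin L, had 3897, 4273 and 4568 CPM against 2860, 2923 and 2879 CPM (0.56), which turned to the other sign without a low-count filter. Between genotypes these genes differed in one direction more than the other, with 18 of 20 differences called lower, beside 27.9% of all genes, and 1 higher. For Ctsl the log2 fold change was 0.56 ± 0.05 in libraries labelled Cysltr1-/- and 1.91 ± 0.05 in WT, a difference of -1.35 ± 0.07 (edgeR adjusted p = 3.3e-15). Atp6v0d2, a subunit of the proton pump of macrophages, fell to 56.9, 60.2 and 55.4 CPM with EMT6 medium, against 327, 329.7 and 317 CPM with IL-6 (-2.50).

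Other abundant transcripts followed no single class. Actb, cytoplasmic actin, had 907, 1041 and 927 CPM with EMT6 medium, against 4615, 4561 and 4656 CPM with IL-6 (-2.27). Spp1, osteopontin, had 1268, 1406 and 1422 CPM against 4714, 4839 and 4670 CPM (-1.80). Txnip, an inhibitor of thioredoxin, had 1667, 1692 and 1749 CPM against 674, 714 and 701 CPM (1.29), and the nuclear RNA Malat1 had 2615, 1808 and 1886 CPM against 1037, 1023 and 1060 CPM. Malat1 was highest in the first EMT6 medium library, and the lowest library there still exceeded every IL-6 library.

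Markers of other cells that marrow or tumour medium could add differed by cell type. In sums of CPM by plain library size, the 13 B cell genes summed to 702 to 778 CPM with EMT6 medium, against 186 to 195 CPM with IL-6, and none was at 0 counts. All 9 kept were higher, beside 44.0% of all genes. Cd79b, a chain of the B cell receptor complex, had 77, 87.9 and 92.7 CPM with EMT6 medium, against 17.1, 18.6 and 19.8 CPM with IL-6 (2.21). The 13 T and NK cell genes summed to 195 to 220 CPM against 74.5 to 76.9 CPM, and all 4 kept were higher, 2 of them having passed the minimum with EMT6 medium alone. Thy1, which is also on the mesenchymal list, made up 125 to 148 CPM of that sum with EMT6 medium and 54.2 to 55.6 CPM with IL-6. The other kept genes were Cd3e, Cd3g and Lck. By plain library size Cd3e had 20.7, 23.1 and 18.6 CPM with EMT6 medium, against 2.98, 3.43 and 4.02 CPM with IL-6. Cd3g had 12.4, 14.6 and 13.2 CPM against 2.35, 2.52 and 2.26 CPM, and Lck 23.6, 24.5 and 25.2 CPM against 7.94, 9.19 and 7.43 CPM. Cd8a, Trac and Gzma stayed below 2 CPM in every one of these libraries. The 14 annotated mesenchymal genes of 16 listed summed to 260 to 294 CPM against 91.4 to 97.2 CPM, and 9 of the 10 kept were higher, 8 genes having passed with EMT6 medium alone. The 14 epithelial genes summed to 95.2 to 120 CPM with EMT6 medium, against 1002 to 1018 CPM with IL-6, a sum that Cdh1 dominates, and 1 of them was at 0 in each group. The medians over the kept genes of the B, T and NK, epithelial and mesenchymal lists were 1.59, 1.74, 2.25 and 2.27. None of the B cell genes, 2 of 4 T and NK, 3 of 5 epithelial and 8 of 10 mesenchymal genes passed with EMT6 medium alone. The erythroid and megakaryocyte list went the other way in its sum, though not in every member. Its 15 genes summed to 721 to 758 CPM with EMT6 medium, against 1162 to 1211 CPM with IL-6, and 1 was at 0 with EMT6 medium. Of the 6 kept, 1 was higher and 4 lower, with a median of -1.78 that ranged from -2.34 to -0.32. Itga2b, the platelet integrin chain CD41, had 47.3, 47.8 and 39.1 CPM with EMT6 medium, against 421, 439.7 and 449 CPM with IL-6 (-3.28), and Vwf, the von Willebrand factor, differed by -2.90. Tfrc, the transferrin receptor, was the kept gene that rose (1.29). Erythroid genes under the minimum were mixed. By plain library size Klf1 had 4.48, 3.97 and 3.61 CPM with EMT6 medium, against 1.64, 2.06 and 1.40 CPM with IL-6. Hbb-bs had 3.40, 5.63 and 3.41 CPM against 1.77, 1.83 and 1.48 CPM. Epor went down, with 1.70, 0.939 and 1.85 CPM against 4.71, 4.62 and 4.92 CPM. For 0 kept genes of these lists did a background estimated from the receptor genes exceed what remained of the EMT6 medium level. The part of the no-feature reads in these sums was not tested.

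**Figure D4:**
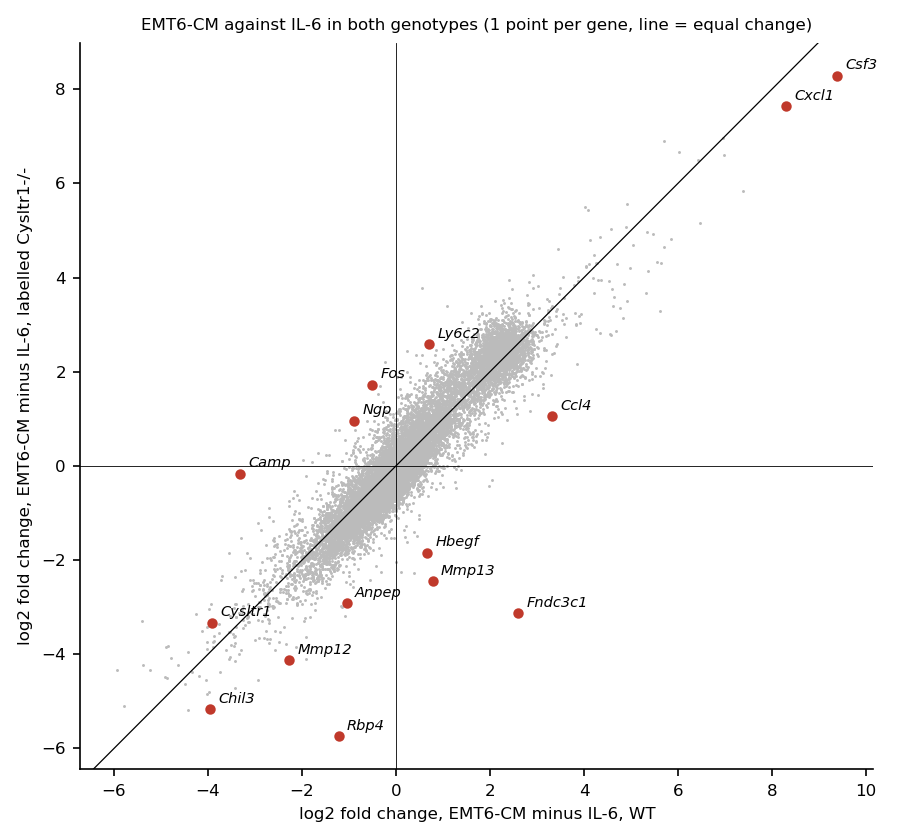
Log2 fold change, EMT6 medium over IL-6, in libraries labelled Cysltr1-/- (vertical axis) and in WT libraries (horizontal axis); each point is one of 14240 genes and the line marks equal change. Named genes in red include Rbp4, Fndc3c1, Mmp13 and Hbegf far below the line and Camp and Fos above it, and the 3466 genes that reached 5 CPM with EMT6 medium alone have medians of 2.23 and 2.04.

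Most genes were called in the same direction in both genotypes. Genes called higher in both numbered 5546, which is 88.6% of those in the labelled genotype and 86.4% of those in WT. Genes called lower in both numbered 5346, or 83.5% and 90.1%. Opposite calls numbered 480. A genotype difference of at least 2-fold was called for 266 genes higher and 194 lower.

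Some genes went against each other. Mmp13, a collagenase, had 307, 295 and 313 CPM with EMT6 medium, against 1634, 1707 and 1648 CPM with IL-6 in libraries labelled Cysltr1-/-. In WT it had 829, 810.0 and 770.3 CPM with EMT6 medium, against 453, 469 and 481 CPM with IL-6. It thus fell in the labelled genotype and rose in WT, with log2 fold changes of -2.45 ± 0.05 and 0.78 ± 0.05 and a difference of -3.23 ± 0.07 (edgeR adjusted p = 8.4e-24). Hbegf, a growth factor of the EGF family, had 34.9, 31.4 and 35 CPM against 123, 121 and 119.8 CPM in libraries labelled Cysltr1-/-, and 73.6, 72 and 69.4 CPM against 45.9, 45.3 and 45.3 CPM in WT, a difference of -2.50 ± 0.07 (edgeR adjusted p = 2.0e-20). Fos, an immediate early factor, had 135, 131 and 143 CPM against 41, 40.7 and 42.2 CPM in libraries labelled Cysltr1-/-, and 77.3, 77.2 and 75.8 CPM against 112, 107 and 106 CPM in WT, and its difference was 2.22 ± 0.07 (edgeR adjusted p = 5.2e-19). For all of these genes the media groups did not overlap within either genotype.

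Other differences were of size or of presence. Rbp4 was scarce in WT, with 0.75, 1.43 and 1.52 CPM with EMT6 medium, against 2.95, 2.96 and 2.55 CPM with IL-6, while the IL-6 libraries labelled Cysltr1-/- held 129, 134 and 126 CPM. Its difference was -4.52 ± 0.31 (edgeR adjusted p = 4.5e-12). Camp, the cathelicidin of late neutrophil granules, had 6.97, 9.44 and 7.49 CPM with EMT6 medium and 8.7, 8.4 and 9.37 CPM with IL-6 in libraries labelled Cysltr1-/-, and these overlapped. In WT it had 5.57, 5.6 and 6.27 CPM with EMT6 medium, against 57.4, 57.4 and 59.2 CPM with IL-6. Its genotype difference was 3.15 ± 0.18 (edgeR adjusted p = 1.5e-13). Ccl4, an inflammatory CC chemokine, rose in both genotypes and less in the labelled one, with a difference of -2.27 ± 0.08 (edgeR adjusted p = 1.1e-17). Cysltr1 itself fell in both, with log2 fold changes of -3.33 ± 0.08 and -3.92 ± 0.08 and a difference of 0.59 ± 0.14 (edgeR adjusted p = 7.4e-04).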

How the data were processed

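The authors aligned reads with HISAT2 2.1.0 to mm10 and counted them per gene with HTSeq 0.13.5, per the submitters' processing notes, which also name DESeq2 1.34.0. The deposited values are raw counts per GENCODE gene, one column per library. Libraries were made with a poly(A) NEBNext kit, per the labels' protocols. The strand setting is not given in the sources used here, so overlapping and antisense genes cannot be told apart. Of the deposited entries, 26248 numbered entries, 97 spike-in entries with 0 counts and 5 summary lines were left out, and all 55536 gene IDs matched GENCODE M21.

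Genes were kept where the mean CPM, by plain library size, reached 5 in a group compared. edgeR 4.0.16 in R 4.3.3 fitted all 18 libraries in 6 groups after TMM scaling over the kept genes, and its quasi-likelihood F test with Benjamini-Hochberg adjustment over 14240 genes gave the calls at 0.05. The values after ± were the absolute fold change over the square root of its F value, and were not directly fitted standard errors. The script was tested on simulated data. DESeq2 1.42.0, other scalings and filters, subtraction of a background, a replicate block and leaving out each library were alternatives. The background was estimated per exon base from the receptor genes or from the no-feature reads. Promoters were RefSeq GRCm38.p6.

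Genes were named by rule: the 15 largest rises and falls without overlap at 20 CPM or more, the 4 smallest p-values per list, the 10 largest CPM differences in each direction, the 8 largest genotype differences in each direction at 20 CPM or more in 1 of the 4 groups, and a set of receptors, cytokines and enzymes. Others were chosen after their values were seen: Cxcl3, Cxcl5, Pf4, Isg15, Ifit3, Ifih1, Atf4, Ddit3, Dnajb9, Hspa5, Mki67, Ly6g, Fpr2, Alox5ap, Ltc4s, Cysltr2, Ltb4r2, Bcl6, Siglecf, Clec4d, Clec4e, Spi1, Cebpa, Cebpb, Klf4, Hoxa9, Ccl2, Cish, Il1b, Il1rn and Fabp4. The groups and the 59 gene lists were chosen with earlier results of these data known. Each sample is a pool of 3 mice. The p-values rest on the spread between libraries within groups, estimated over all 18 libraries with information shared across genes. Whether each library had a pool of its own is not established here. Depth was 9583728 to 24372513 counts per library, which limits genes near the minimum. No 2 replicates agreed within counting noise.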

Additional observations from a re-analysis of the deposited data

Results flagged for a closer look

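The log2 fold change of EMT6 medium over IL-6 differed between libraries labelled Cysltr1-/- and WT libraries, by edgeR's contrast of the 2 fold changes, for the 8 genes furthest in each direction among those with a mean of at least 20 CPM in at least 1 of the 4 groups and a symbol that is no predicted-gene name. Each difference is that of the labelled genotype minus that of WT, and each kept its sign under every alternative run. In the lower direction they were -5.73 for Fndc3c1, -4.52 for Rbp4, -3.23 for Mmp13, -2.50 for Hbegf, -2.27 for Ccl4, -1.93 for Armcx4, -1.87 for Anpep and -1.84 for Mmp12. In the higher direction they were 3.15 for Camp, 2.22 for Fos, 2.22 for BC117090, 2.11 for Nxpe5, 2.03 for Arhgap19, 1.90 for Abca13, 1.87 for Ly6c2 and 1.85 for Ngp. For Anpep, an aminopeptidase used as a myeloid surface marker, libraries labelled Cysltr1-/- had 37.9, 38.2 and 36.4 CPM with EMT6 medium, against 283, 282 and 284 CPM with IL-6. WT libraries had 97, 87.7 and 85.2 CPM with EMT6 medium, against 184, 188 and 185 CPM with IL-6. Ly6c2, a surface antigen of monocytes, had 27.3, 35.4 and 38 CPM against 5.61, 5.2 and 5.82 CPM in the labelled genotype, and 29.6, 33.8 and 26.5 CPM against 17, 19 and 18.6 CPM in WT. Ngp, a late neutrophil granule protein, rose in the labelled genotype, with 488, 502 and 514 CPM against 256, 256 and 259 CPM, and fell in WT, with 531, 544 and 478 CPM against 928, 993 and 957 CPM.

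BC117090 varied within one group, with 37.2, 48.9 and 13.2 CPM in the WT IL-6 libraries. After the background from no-feature reads was subtracted, the difference of Fndc3c1 was -10.02 and that of Armcx4 was -5.55.

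Reads in no annotated feature lay outside the gene counts and averaged 50.2% in the EMT6 medium libraries labelled Cysltr1-/-, the highest of the 6 groups, against 19.5% in the IL-6 libraries. In WT they averaged 36.2% with EMT6 medium, against 14.5% with IL-6, and with GM-CSF alone 17.6% in libraries labelled Cysltr1-/- and 14.2% in WT.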

How the results depend on the processing

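Of 14240 genes, 6261 were higher and 6405 lower, so 49.4% of calls were higher. Plain library size gave 7710 and 4824 (61.5% higher), with the median of all genes 0.29 above that of the TMM scaling. DESeq2 size factors in edgeR gave 6434 and 6205, and DESeq2 gave 6386 and 6160. The edgeR filter on all genes gave 15245 higher (62.4%), and over the common genes 39.0% were higher. No filter gave 14881 higher and 10678 lower, and over the common genes 32.7% were higher. A minimum of 20 CPM gave 3755 and 3604, and 5 CPM in both groups gave 4324 and 4310. A fold threshold of 2 left 3853 and 2323, or 62.4% higher. Subtracting the receptor-gene background gave 5752 and 6023, and the no-feature background gave 5572 and 5438. Without one library at a time, higher genes numbered 6154 to 6195 and lower genes 6299 to 6352.

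Few of the 251 genes named by rule changed sign. Socs3 was 0.028 with plain library size, 0.065 at 20 CPM, 0.040 with 5 CPM in both groups and 0.067 with the no-feature background. Camp was 0.12 with plain library size, 0.13 with 5 CPM in both groups and 0.10 with the no-feature background. Nxpe5 was -0.17 with the edgeR filter and -0.43 with no filter. With no filter Ctsl was -0.010 and Nos2 was -0.22. These settings also shifted the log2 fold changes of the common genes as a whole. The median shift was 0.29 with plain library size, 0.33 at 20 CPM and 0.30 with 5 CPM in both groups. It was 0.24 with the no-feature background, -0.30 with the edgeR filter and -0.57 with no filter. Whether anything beyond this shift moved the genes was not tested.

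Whether the replicate numbers of the labels pair the samples cannot be told from these values. Correlations of same-numbered deviations were small, at 0.0124 to 0.0666, but each sample correlated best with its own number. Those of different numbers ran from -0.0576 to 0.0062. With a replicate block, 6259 genes were higher and 6406 lower. No paired value changed a call described here.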
